A study of Homo sapiens with 2 samples.

Results

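The RNA of 10 genes that govern the entry of cells into the division cycle was compared between REH and 697, human cell lines grown from acute lymphoblastic leukemia of B-cell precursors (BCP-ALL). The genes were taken as a listed set, by symbol, and were found with 1 Ensembl identifier each among the 57773 genes counted. They are CDKN2A, CDKN2B and MTAP, which neighbour each other on the short arm of chromosome 9, the related inhibitor genes CDKN2C and CDKN2D, the kinase genes CDK4 and CDK6, and the D-type cyclin genes CCND1, CCND2 and CCND3. REH carries the ETV6/RUNX1 fusion together with a deletion of the other ETV6 allele, and 697 is negative for that fusion. Both lines came from a cell repository and were grown untreated in serum-supplemented RPMI medium, and total RNA of each gave 1 library. There were no replicates, so no p-value is given, every interval covers counting error only, and each difference is one between these libraries.

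Cells leave the G1 phase when D-type cyclins bind CDK4 or CDK6 and the complexes phosphorylate the retinoblastoma protein RB1, which then releases E2F transcription factors. The INK4 proteins, encoded by CDKN2A (p16INK4a), CDKN2B (p15INK4b), CDKN2C (p18INK4c) and CDKN2D (p19INK4d), bind CDK4 and CDK6 and block this step. CDKN2A also encodes p14ARF from another first exon, a protein that restrains the ubiquitin ligase MDM2. MTAP, which lies beside CDKN2A and encodes an enzyme of methionine salvage, is often lost together with it, and loss of this region is a frequent lesion in acute lymphoblastic leukemia.

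The REH library held 45188375 reads in genes and the 697 library 41097497. Levels are given as CPM (counts per 1e+06 reads in genes), with the library totals scaled by the trimmed mean of M-values. On that scale 3 reads, the limit used for a gene without reads, equal 0.0597 CPM in REH and 0.0812 CPM in 697. The reads divided evenly between the strands (50.1% and 50.2% on the strand of the gene), so a gene and a transcript running against it could not be told apart. Of 8 B-cell precursor markers, 7 had at least 10 reads in REH and 8 in 697, with summed levels of 5131 and 7397 CPM. The exception was VPREB1, a surrogate light chain gene, with 3 reads in REH and 10039 in 697. Among 4 T cell markers CD3E alone reached 10 reads, with 45 in REH and 0 in 697, and CD3D and CD2 were at 0 in both (summed levels 0.935 and 0.0271 CPM). Of 4 myeloid markers 3 reached 10 reads in REH and 2 in 697 (summed levels 270.4 and 1.46 CPM), and MPO, the myeloperoxidase gene, made up most of the former with 12643 reads in REH and 12 in 697. The erythroid marker HBB was at 0 in both. Of the stromal or epithelial markers COL1A1 alone reached 10 reads (9.49 and 10.5 CPM), with COL3A1 at 0 in both. The part of these markers in the differences that follow was not tested.

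A log2 ratio of REH over 697 of at least 2 in size, a 4-fold difference, was taken as the threshold. A gene was compared where either library held 10 reads or more, which left 9 of the 10. Above the threshold 3 were higher in REH (CDK6, CCND1 and CCND2), against 12.5% of all 19145 genes compared, and 2 were higher in 697 (CDKN2A and MTAP), against 8.15% of all. The remaining 4 (CDKN2C, CDKN2D, CDK4 and CCND3) stayed below it. The gene that could not be compared was CDKN2B, with 0 reads in both libraries. The median log2 ratio of the 9 genes was -0.57, with genes at 0 reads placed at the limit of 3 reads or not, beside 0.05 over all genes compared. In bulk RNA, fewer cells with a transcript and less transcript per cell cannot be told apart.

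**Figure D1:**
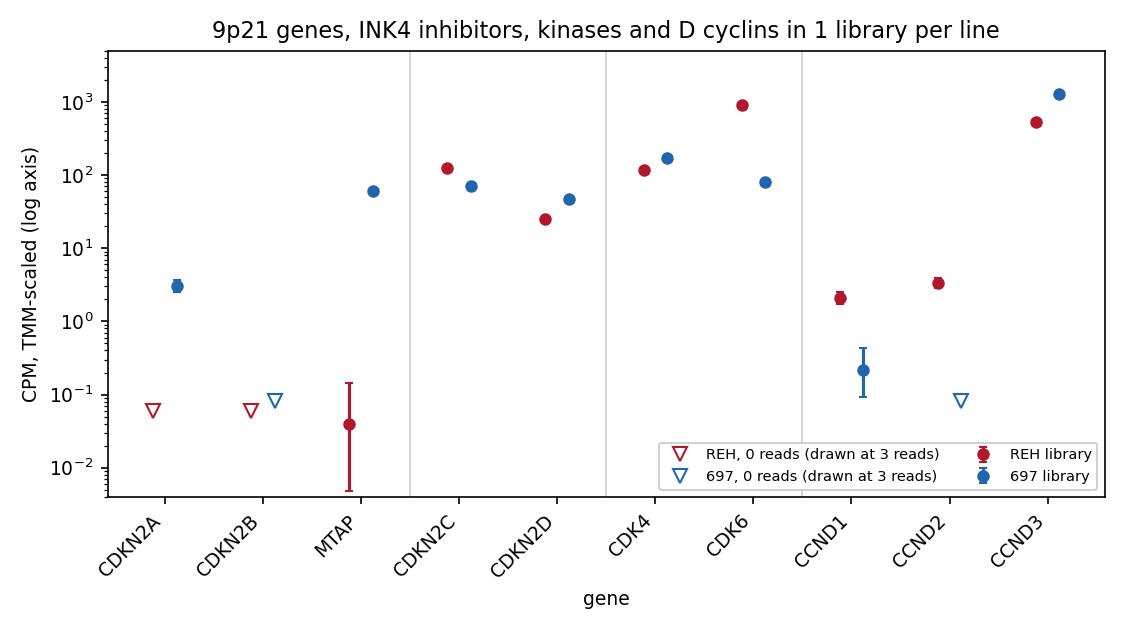
Level of each gene in CPM (log axis) in the REH library (red) and the 697 library (blue), with 95% Poisson counting intervals as bars; open triangles mark genes with 0 reads, drawn at the level of 3 reads. MTAP and CDKN2A lie far lower in REH, CDK6 lies higher in REH at 908 against 80.9 CPM, and CDKN2B has a triangle for both libraries.

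To see whether reads were absent across the CDKN2A locus, the start regions of its genes were placed first, since gene counts merge transcripts from several starts. The RefSeq promoter windows run from 250 bases before to 50 bases after a start on GRCh38.p14, and are shown because CDKN2A has a pair of starts 20.5 kb apart, with CDKN2B starting a further 14.0 kb upstream of the outer one. Windows were found for 8 of the 10 genes, all except CCND1 and CCND2. All windows below are on the minus strand and are printed 5′ to 3′ with CG pairs, the sites of DNA methylation, in capitals.
CDKN2A, outer start (p14ARF), chr9:21995275-21995574: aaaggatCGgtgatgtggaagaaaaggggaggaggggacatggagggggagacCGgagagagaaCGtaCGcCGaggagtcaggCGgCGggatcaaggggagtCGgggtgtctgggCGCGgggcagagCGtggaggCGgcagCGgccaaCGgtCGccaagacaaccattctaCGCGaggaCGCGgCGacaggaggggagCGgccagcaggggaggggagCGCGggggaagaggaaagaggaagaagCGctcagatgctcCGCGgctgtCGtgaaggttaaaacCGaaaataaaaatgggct
CDKN2A, inner start (p16INK4a), chr9:21974808-21975107: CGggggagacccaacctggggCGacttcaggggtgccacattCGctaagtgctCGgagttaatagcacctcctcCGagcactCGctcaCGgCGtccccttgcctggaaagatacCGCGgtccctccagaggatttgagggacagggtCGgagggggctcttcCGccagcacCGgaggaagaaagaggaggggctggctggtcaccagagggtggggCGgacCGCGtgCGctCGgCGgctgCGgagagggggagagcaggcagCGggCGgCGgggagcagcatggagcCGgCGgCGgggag
CDKN2B, chr9:22009256-22009555: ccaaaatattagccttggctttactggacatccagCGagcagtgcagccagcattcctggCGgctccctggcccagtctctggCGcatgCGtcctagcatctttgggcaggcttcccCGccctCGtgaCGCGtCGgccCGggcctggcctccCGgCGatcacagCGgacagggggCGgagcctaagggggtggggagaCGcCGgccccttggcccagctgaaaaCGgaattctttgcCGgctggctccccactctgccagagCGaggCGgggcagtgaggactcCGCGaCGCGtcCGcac
These windows held 28, 26 and 25 CG pairs, where the median of 35116 promoter windows was 14. Of all promoter windows, 75.8%, 71.8% and 69.9% held as many or fewer, so such counts are common. The counts do not tell reads of the outer start from reads of the inner one.

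CDKN2A (chromosome 9, 21967752 to 21995301, GRCh38, minus strand) had 0 reads in REH and 112 reads in 697, or 3.03 CPM (95% Poisson interval 2.50 to 3.65 CPM). Set against the limit of 3 reads in REH, its level was 50.8-fold higher in 697. By its 95% counting interval the log2 ratio of REH over 697 was -5.34 or lower. MTAP (21802636 to 21937651, plus strand) had 2 reads in REH, or 0.0398 CPM, and 2261 reads in 697, or 61.2 CPM. The level of MTAP was thus 1538-fold higher in 697, with a counting interval of 425 to 12708. CDKN2B (22002903 to 22009305, minus strand) had 0 reads in each library, and 17.1% of all 19208 protein-coding genes were likewise at 0 in both. Across the 3 genes together 2 reads were counted in REH and 2373 in 697. REH thus lacked reads almost entirely across the trio, whereas in 697 MTAP was well covered, CDKN2A was covered thinly and CDKN2B was not detectable at this depth.

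The strand columns of the count files show which reads were set aside because of overlap. A read in a stretch shared by genes on opposite strands is left out of the unstranded count but is assigned in a strand column. For CDKN2A both strand columns held 0 reads in REH, and 64 and 57 reads in 697, only 9 more than the unstranded 112. CDKN2B had 0 reads in every column of both libraries. MTAP had 1 read in each strand column in REH, and 1209 and 1252 reads in 697. The absence of CDKN2A and CDKN2B reads in REH was therefore the same in all columns. Reads with several matches in the genome were not counted, so shared sequence was counted too. CDKN2A and CDKN2B share 31 stretches of 50 bases with each other, 0.755% of those in the CDKN2A transcripts and 0.776% of those in the CDKN2B transcripts. MTAP shares 1.60% of its stretches with genes elsewhere, among them the pseudogene MTAPP2 with 47.

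The genes around the locus were then followed along the chromosome. From FOCAD, a gene for a focal adhesion protein, to CDKN2B-AS1, a lncRNA that runs against CDKN2B, 53 counted genes span 1470 kb (20658309 to 22128103). In this stretch 22 reads were counted in REH and 5674 in 697. Of its 13 genes with at least 10 reads in 697, 11 had 0 reads in REH, against 2.02% of all 16361 such genes. The bounds of the stretch were set with these counts known and it holds CDKN2A and MTAP themselves, so its share is a description. In the whole window of 3 Mb on either side of CDKN2A, 11 of 24 such genes had 0 reads in REH. Among the 11, TUBB8P1, ENSG00000265194 and ERVFRD-3 lie within MTAP. Their reads in 697 cannot be told from MTAP RNA that crosses them, so they are not separate from it. The exceptions within the stretch were MTAP with its 2 reads and KHSRPP1, a processed pseudogene, with 20 reads in REH and 24 in 697. KHSRPP1 shares 76 of its 1719 stretches of 50 bases with its parent gene KHSRP on chromosome 19, which had 17425 and 15368 reads.

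The protein-coding genes of the stretch showed the same split. FOCAD had 0 reads in REH and 596 in 697, which is 270.3-fold higher in 697 against the limit of 3 reads in REH. KLHL9, which encodes an adaptor of a ubiquitin ligase, had 0 reads in REH and 2419 in 697, or 1097-fold higher against the same limit. With MTAP and CDKN2A these were the 4 protein-coding genes of the stretch with at least 100 reads in 697. All 4 had 3 or fewer reads in REH, against 1.73% of all 10453 such genes. In the whole window it was 4 of 10 such protein-coding genes. Of the 16 type I interferon genes that lie between FOCAD and MTAP, none had a read in REH, and in 697 the same 16 had 47 reads in total, with IFNW1 (23 reads) and IFNA21 (11 reads) above 10. CDKN2B-AS1 had 0 reads in REH and 19 in 697. Between MTAP and CDKN2B, CDKN2A-DT had 0 reads in both libraries. The genes that lie over MTAP followed it, with 0 reads in REH for TUBB8P1, ENSG00000265194 and ERVFRD-3 and 24, 106 and 16 reads in 697. The readthrough gene ENSG00000264545, which spans MTAP to CDKN2B, had 0 reads in both.

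The flanks were covered unevenly. On the telomeric side the nearest genes with at least 10 reads in each library were ENSG00000260912 (259 reads in REH and 94 in 697) and ACER2, a ceramidase gene (354 and 106), 1203 kb and 1206 kb from FOCAD. RPS6, a ribosomal protein gene farther out, had 82354 and 152873 reads. The REH library alone had reads in SLC24A2 (205 and 0), the gene closest to FOCAD on this side with at least 10 reads in REH. MLLT3, which lies between these, had 1 and 4 reads, so neither library is informative there. On the centromeric side, beyond CDKN2B-AS1, no gene within 3 Mb of CDKN2A had 10 reads in either library, and the pseudogene CLIC4P1 had 4 reads in REH and 0 in 697. The first gene with at least 10 reads lay farther out and was chosen after its values were seen. It was TUSC1 (25676969 to 25678444), 3.55 Mb from CDKN2B-AS1, with 0 reads in REH and 1189 in 697. Against the limit of 3 reads in REH, TUSC1 was 539.2-fold higher in 697. Next came CAAP1, an apoptosis regulator, with 1764 reads in REH and 982 in 697, 4713 kb from CDKN2B-AS1. Between SLC24A2 and CAAP1, a distance of 7.05 Mb, REH had 28 reads over 82 genes, 697 had 6869, and KHSRPP1 alone reached 10 reads in REH. Counts of RNA cannot tell a lost locus from a silent one, and no DNA was measured here.

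**Figure D2:**
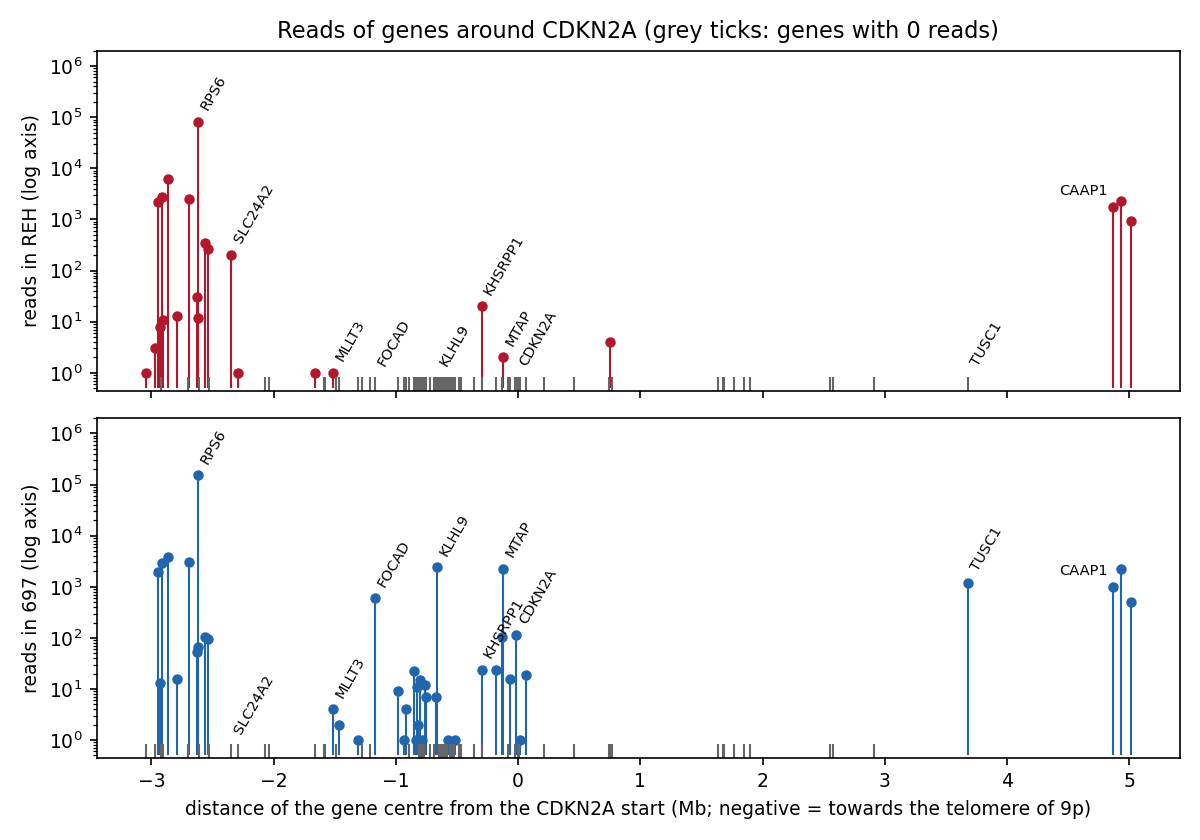
Reads per gene (log axis) in REH (upper panel) and 697 (lower panel) against the distance of the gene's centre from the CDKN2A start in Mb, with grey ticks for genes at 0 reads. Between SLC24A2 and CAAP1 the REH panel holds 28 reads over 82 genes, whereas FOCAD, KLHL9, MTAP, CDKN2A and TUSC1 have 596, 2419, 2261, 112 and 1189 reads in 697.

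The other INK4 inhibitors were present in both libraries and leaned in opposite directions below the threshold. CDKN2C (chromosome 1, 50960745 to 50974634), which encodes p18INK4c, had 6215 reads in REH and 2621 in 697, or 123.6 and 70.9 CPM (1.74-fold higher in REH, interval 1.66 to 1.83). CDKN2D (chromosome 19, 10566460 to 10569059), which encodes p19INK4d, had 1259 and 1720 reads, or 25.0 CPM (interval 23.7 to 26.5) and 46.6 CPM (interval 44.4 to 48.8), which is 1.86-fold higher in 697. To compare genes with each other, levels were divided by the summed exon length in kb, giving CPM per kb. On this scale CDKN2C exceeded CDKN2D by 2.46-fold in REH (41.0 against 16.6 CPM per kb). In 697 the order was the reverse, with 23.5 CPM per kb for CDKN2C and 30.9 for CDKN2D. CDKN2A reached only 0.780 CPM per kb in 697, or 1.41% of the summed level of the INK4 genes. That sum was 57.6 CPM per kb in REH and 55.2 in 697, a ratio of 1.04, of which CDKN2C made up 71.1% in REH and 42.6% in 697.

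Of the kinases, CDK6 gave the largest difference by read number. CDK6 (chromosome 7, 92604921 to 92836573) had 45649 reads in REH and 2989 in 697, or 908 and 80.9 CPM. Its level was 11.2-fold higher in REH, with an interval of 10.8 to 11.7. CDK4 (chromosome 12, 57747727 to 57756013) had 5863 reads in REH and 6413 in 697, or 116.6 and 173.6 CPM, which is 1.49-fold higher in 697 (interval 1.44 to 1.54). Per kb of exon, CDK6 stood at 74.2 in REH against 37.7 for CDK4, and at 6.61 in 697 against 56.1. The balance of the kinases was therefore opposite in the libraries, with CDK6 at 1.97 times the CDK4 level in REH and CDK4 at 8.49 times the CDK6 level in 697.

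The size of that balance depended on reads that CDK4 shares with TSPAN31, a tetraspanin gene that overlaps its end on the opposite strand. The strand columns together held 10043 CDK4 reads in REH and 11101 in 697, so that 41.6% and 42.2% of them were missing from the unstranded count. Among 13709 genes with at least 100 reads in the REH strand columns, 12.5% had a share as large, and the median share was 0%. With these reads included CDK6 was at 1.16 times the CDK4 level in REH, and CDK4 was at 14.7 times the CDK6 level in 697. Which of the shared reads came from TSPAN31 is not known.

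A lncRNA that starts beside CDK6 differed in the same direction. CDK6-AS1 (chromosome 7, 92836367 to 92917188, plus strand) had 2158 reads in REH and 0 in 697, where the strand columns held 1 read in all. Against 3 reads in 697 its level was 529-fold higher in REH. The RefSeq promoter windows of CDK6-AS1 and of the outer start of CDK6 overlap by 9 bases, so they are shown side by side with CG pairs in capitals.
CDK6, minus strand, chr7:92836524-92836823: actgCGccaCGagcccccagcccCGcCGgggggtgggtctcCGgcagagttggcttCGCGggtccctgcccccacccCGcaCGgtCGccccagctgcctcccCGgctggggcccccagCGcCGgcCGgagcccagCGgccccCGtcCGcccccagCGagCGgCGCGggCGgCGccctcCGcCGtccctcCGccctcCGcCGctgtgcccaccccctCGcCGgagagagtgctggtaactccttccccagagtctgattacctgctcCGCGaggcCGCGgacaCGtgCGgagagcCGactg
CDK6-AS1, plus strand, chr7:92836233-92836532: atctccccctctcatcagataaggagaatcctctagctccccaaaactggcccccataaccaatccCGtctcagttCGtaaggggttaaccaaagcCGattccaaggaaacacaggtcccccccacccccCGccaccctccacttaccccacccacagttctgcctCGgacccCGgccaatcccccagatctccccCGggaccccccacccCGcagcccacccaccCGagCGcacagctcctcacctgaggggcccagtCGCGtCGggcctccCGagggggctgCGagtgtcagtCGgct
The windows held 37 and 16 CG pairs. The RUNX core TGTGGT was searched on both strands, because the lines differ in a RUNX1 fusion. It occurred in none of the 14 windows of the listed genes nor in that of CDK6-AS1, and in 13.1% of all promoter windows. At that share, 14 windows are too few to show a difference. CCND1 and CCND2 had no window and could not be searched. Only 525 CDK6 reads in REH (1.14%) were left out as shared with an overlapping gene.

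The D-type cyclins were dominated by CCND3 in both libraries. CCND3 (chromosome 6, 41934934 to 42050357) had 26371 reads in REH and 47607 in 697, or 525 and 1289 CPM, and was 2.46-fold higher in 697 (interval 2.42 to 2.49), below the threshold. Per kb of exon it made up 99.1% of the summed D-cyclin level in REH and 99.98% in 697. CCND2 (chromosome 12, 4269771 to 4305353) had 168 reads in REH, or 3.34 CPM, and 0 in 697. Against 3 reads in 697, CCND2 was 41.2-fold higher in REH, and by its counting interval the log2 ratio was 5.05 or higher. Of all 11007 protein-coding genes with at least 100 reads in REH, 2.88% had 3 or fewer in 697. CCND1 (chromosome 11, 69641156 to 69654474) had 105 reads in REH and 8 in 697, or 2.09 and 0.217 CPM, a 9.65-fold difference with an interval of 4.72 to 22.9. Both minor cyclins were thus higher in REH at low levels, and the major one was higher in 697. The summed D-cyclin level per kb was 2.43-fold higher in 697.

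The call for CCND1 depended on the treatment of shared reads. Its end overlaps LTO1, a gene on the opposite strand with 1290 reads in REH and 980 in 697. The strand columns together assigned 134 reads to CCND1 in REH and 29 in 697, so 21.6% and 72.4% were missing from the unstranded count. With them the log2 ratio was 1.76 (interval 1.19 to 2.41) in place of 3.19, below the threshold. The reads so added numbered 29 in REH and 21 in 697, and the strand columns of LTO1 gained the same numbers. Which of the shared reads came from LTO1 is not known. For CCND2 the strand columns added 5 reads in REH and 0 in 697, and the antisense gene CCND2-AS1 had 1 and 0 reads.

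**Figure D3:**
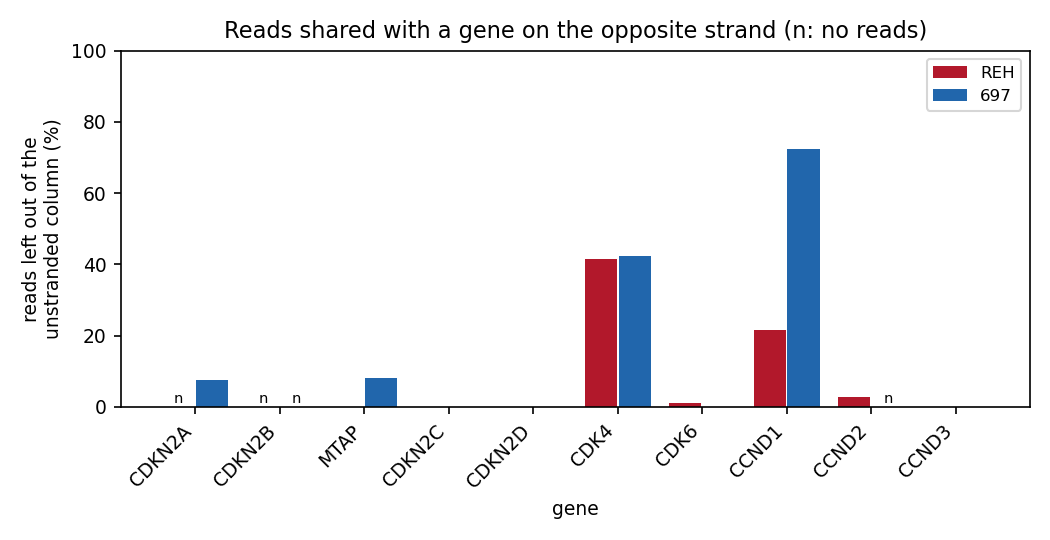
Share of each gene's strand-column reads (in percent) that is missing from the unstranded count, for REH (red) and 697 (blue); n marks a gene without reads. The share is 41.6% and 42.2% for CDK4 and 21.6% and 72.4% for CCND1, and stays below 10% for the other genes.

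Within a library, the levels per kb of exon can be placed in order. In REH CCND3 was highest (91.1 CPM per kb), followed by CDK6 (74.2), CDKN2C (41.0), CDK4 (37.7) and CDKN2D (16.6). CCND1 (0.439) and CCND2 (0.418) came far lower and did not differ beyond their counting intervals. In 697 CCND3 was again highest (223.7), followed by CDK4 (56.1), CDKN2D (30.9), CDKN2C (23.5), CDK6 (6.61), MTAP (4.21), CDKN2A (0.780) and CCND1 (0.0455). Counting intervals of the other neighbours at more than 0 reads did not overlap, except that with shared reads included CDK4 (60.5) stood above CDKN2C (38.4) in REH. These intervals leave out error in the exon lengths, so the order of genes with close levels is uncertain. The lengths sum all annotated exons of a gene, used by these cells or not, and the annotation used for counting is not known.

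The partners of these genes in the pathway were then compared. Of 38 genes in 6 lists, 37 could be compared, and by the threshold 3 were higher in 697, 0 were higher in REH and 34 lay between, where over all genes 8.15% were higher in 697 and 12.5% higher in REH. Their median log2 ratio was -0.35, beside 0.05 for all genes, with 13 genes above 0 and 24 below.

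Among the CIP/KIP inhibitors and CDKN3, which act on cyclin-CDK complexes, 1 of 4 passed. CDKN1C, which encodes p57, was counted 47 times in REH against 268 times in 697, a log2 ratio of -2.94 (interval -3.44 to -2.50). CDKN1A, the gene of p21, stood at 122.0 CPM in REH against 72.4 CPM in 697, a log2 ratio of 0.75. CDKN1B, the gene of p27, stood at 61.7 against 88.4 CPM (-0.52), and CDKN3, a phosphatase gene, at 25.6 against 44.6 CPM (-0.80). In the cyclin E, cyclin A and CDK2 axis, which acts after the D-type cyclins, 0 of the 8 genes compared passed and CCNA1 had 0 reads in both. The largest ratios there were 1.39 for CCNE1 (24.9 and 9.50 CPM) and -1.28 for CDC25A, a phosphatase that activates CDK2 (30.5 and 73.9 CPM). CDK2 itself stood at 131.2 and 166.9 CPM (-0.35), CCNA2 at 111.1 and 166.1 CPM (-0.58) and CCNH, of the CDK-activating kinase, at 25.1 and 24.1 CPM (0.06).

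Of the pocket proteins that CDK4 and CDK6 phosphorylate, 0 of 3 passed. RB1 stood at 195.3 CPM in REH against 314.9 CPM in 697, a log2 ratio of -0.69. RBL1 stood at 63.9 and 80.1 CPM (-0.32) and RBL2 at 130.8 and 153.8 CPM (-0.23). All 3 genes were well covered in both libraries, and with unscaled totals 1 of the 3 ratios was above 0. Of the 10 E2F and DP factors, some of which the pocket proteins hold in check, 1 passed. E2F5, a repressor-type E2F, was counted 780 times in REH against 3678 times in 697, a log2 ratio of -2.68 (interval -2.79 to -2.57). Of its strand-column reads 56.4% in REH and 41.0% in 697 were missing from the unstranded count, and the log2 ratio was -2.05 in the column of its own strand and -2.23 in the sum of both. TFDP2, a partner subunit of the E2F proteins, reached 443.6 and 113.5 CPM and lay just below the threshold at 1.97. E2F1 and E2F2, both activators, stood at 145.0 and 240.5 CPM (-0.73) and at 99.0 and 124.0 CPM (-0.33), and E2F4, a repressor, at 168.5 and 123.0 CPM (0.45).

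Of the 11 genes of methionine salvage, polyamine synthesis and the PRMT5 complex, which are linked to the MTAP reaction, 1 passed. ODC1, the enzyme that opens polyamine synthesis, had 9761 reads in REH and 41121 in 697, or 194.2 and 1113 CPM (log2 ratio -2.52). MAT2A, which makes S-adenosylmethionine, reached 429.7 and 761.1 CPM (-0.82). PRMT5, the arginine methyltransferase that the MTAP substrate inhibits, reached 84.7 and 71.9 CPM (0.24). MRI1, the enzyme after MTAP, reached 18.4 and 5.82 CPM (1.66). Of the strand-column reads of PRMT5, 41.5% in REH and 42.9% in 697 were missing from the unstranded count. For MRI1 the shares were 42.9% in REH and 44.6% in 697. The polyamine enzymes AMD1 and SMS reached 110.7 and 77.3 CPM (0.52) and 53.8 and 134.8 CPM (-1.33). MDM2, the partner of p14ARF, reached 215.1 and 525.2 CPM (-1.29) and did not pass.

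**Figure D4:**
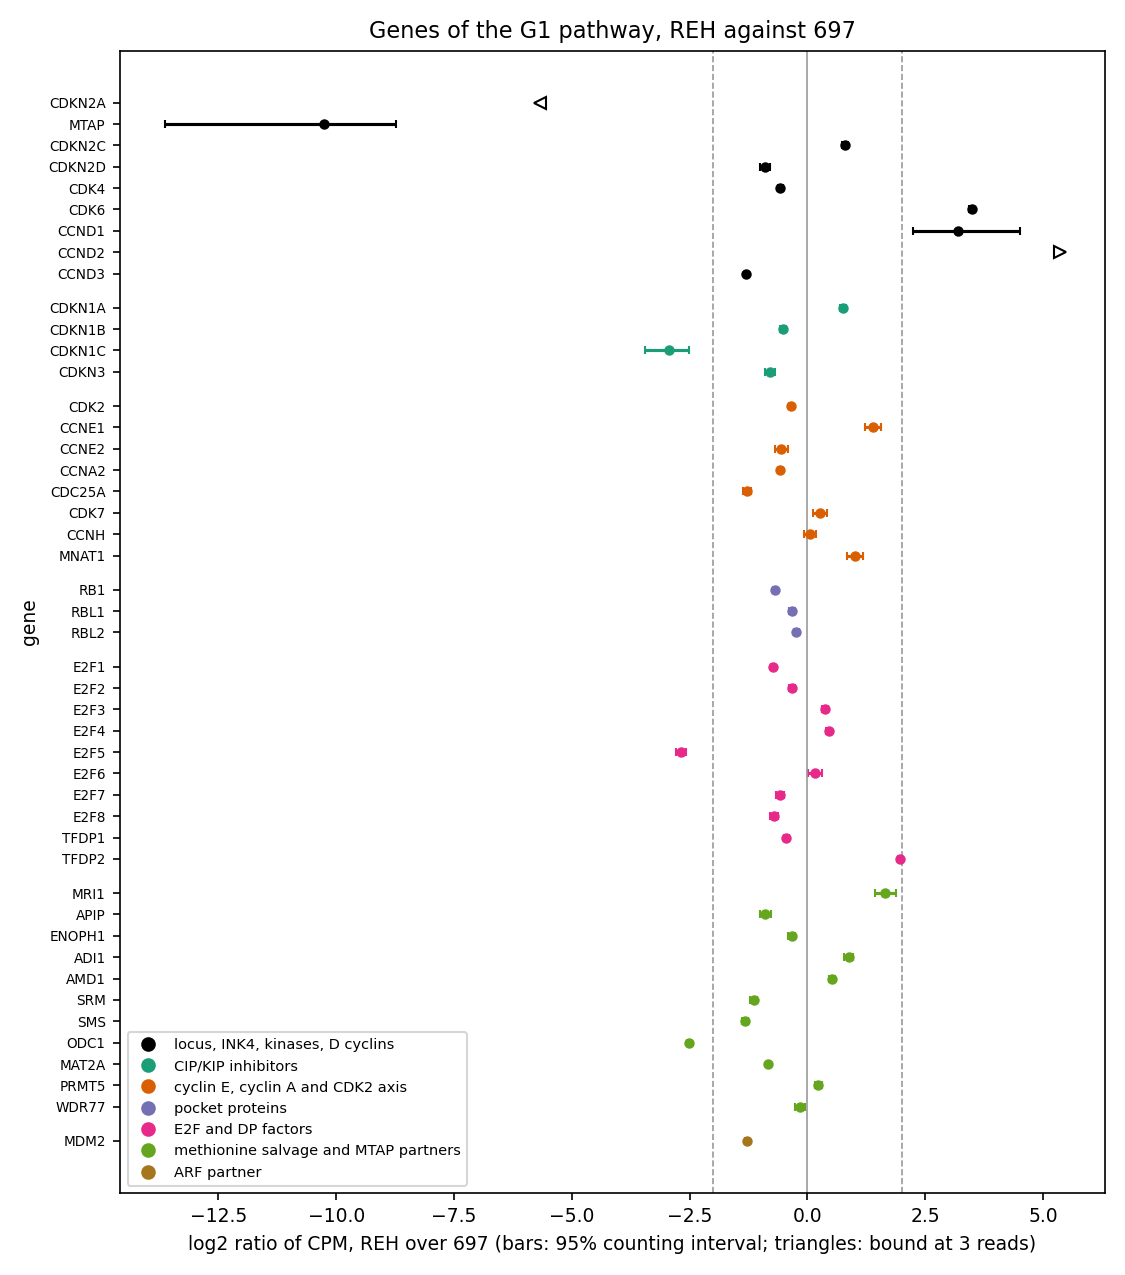
Log2 ratio of CPM, REH over 697, for the 9 genes compared (black) and 37 pathway genes (coloured by list), with 95% counting intervals as bars, triangles for genes with 0 reads in a library (drawn at the bound of 3 reads) and dashed lines at the threshold of 2 in either direction. CDK6, CCND1 and CCND2 lie right of the threshold, CDKN2A, MTAP, CDKN1C, E2F5 and ODC1 left of it, and the rest between.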

How the data were processed

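Read counts per gene were deposited by the authors for 1 REH and 1 697 library, raw and unfiltered. Per the study's methods, reads of TruSeq libraries were aligned to hg38 with STAR, whereas the submitters' processing notes name STAR and hg19. The labels describe ribodepleted stranded RNA and the methods poly(A) purification. The annotation used for counting is not given in the sources used here, and reads with several matches are not counted. The unstranded column was used, and the 4 rows that name no gene were left out of totals (29.3% of reads in REH and 30.3% in 697). Symbols, positions and exon lengths came from GENCODE 44 (GRCh38), which matched 51996 of 57773 IDs. Unmatched IDs have no position and are missing from the map of the locus.

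The 19145 genes that reached 10 reads in either library were compared. Totals were scaled with TMM factors (1.11 for REH, 0.899 for 697; edgeR 4.0.16, R 4.3.3), 0.5 reads were added for log2 ratios, and intervals are exact 95% Clopper-Pearson (ratios) or Poisson (levels). Duplicate reads make true errors larger. The gene lists and members were chosen with earlier results of these data known. Genes named are the members, the nearest covered genes of the locus, genes overlapping a member, pathway genes past the threshold and up to 4 per list with most reads, besides some of interest chosen after their values were seen (CCNE1, MRI1, PRMT5 and, beside the locus, KLHL9, SLC24A2, TUSC1 and their neighbours). A pathway gene and a marker of the lists are not reported here. The calculation was tested on simulated libraries of this comparison (18246 genes), where 200 genes changed by a log2 ratio of 3 were recovered (100%) and 16 of 18046 unchanged genes were called. The changed genes were drawn from well-covered ones, and the simulated counts varied by counting error alone. Changes in genes with few reads and reads shared between genes were therefore not tested. Python 3.11.15 was used with pandas 2.3.3, numpy 2.4.6, matplotlib 3.10.9 and scipy 1.17.1.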

Additional observations from a re-analysis of the deposited data

How the results depend on the processing

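The scaling was replaced by unscaled totals, by size factors from DESeq2 1.42.0, by TMM over protein-coding genes alone and by totals without mitochondrial genes. Other alternatives were 5 added reads, a minimum of 1 or 50 reads, a threshold of 1, each strand column and, chosen after seeing the data, the sum of the strand columns. No paired analysis was possible because there was only 1 library of each line, and none could be left out. The log2 ratios of the 9 genes compared and of CDKN1C, E2F5 and ODC1 kept their sign in every alternative run. Unscaled totals moved the median of all genes by 0.31, and the ratios moved with it, for CDK4 from -0.57 to -0.27. CCND1 was at 1.93 and 1.54 in the separate strand columns, below the threshold, so that 2 genes in place of 3 were higher in REH there and in their sum. At a threshold of 1, CCND3 joined CDKN2A and MTAP, giving 3 genes higher in 697. With 5 added reads CDKN2A was at -4.99 and CCND2 at 4.67, still past the threshold. The number of CDKN2A, CDKN2B and MTAP with 0 reads stayed at 2 in REH and 1 in 697 in every column. Of the pathway genes, 1 was higher in REH with unscaled totals, and at a threshold of 1 there were 4 higher in REH and 7 higher in 697. Depth limits CDKN2A, CCND1 and CCND2, which had 0 to 168 reads, and CDKN2B.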
